A study of Mus musculus with 6 samples.

Results

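The 10 genes described here encode T cell cytokines other than interferon gamma: Il2, Il21, Il10, Csf2, Tnf, Lta, Ltb, Il4, Il5 and Il13. Their accessible regions were taken from a table of 74686 regions with a read count in each of 6 ATAC-seq libraries. A region belonged to a gene when its midpoint lay inside the gene body, or when it was intergenic and that gene was the nearest protein-coding gene within 100 kb. This gave 64 regions, 9 inside the genes and 55 intergenic. Csf2 had 17, Il21 12, Il10 11, Il13 6, Il2 5, Il5 4, Tnf 3, Ltb 3, Lta 2 and Il4 1. Distance alone does not tell which gene such an element acts on.

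ATAC-seq measures open chromatin from the places where a transposase can insert sequencing adapters. Both groups were OT1 CD8 T cells, whose T cell receptor is a transgene specific for a peptide of ovalbumin. They were taken from B16-OVA-GP61 tumors, grown from mouse melanoma cells with ovalbumin and the GP61 epitope, by a sort on CD8 and CD45.1, a marker that tells transferred from host cells. In one group of 3 libraries, called OT1-only below, no SMARTA cells were present. In the other group of 3 libraries SMARTA cells, CD4 T cells with a transgenic receptor for GP61, were present as well. Sorted cells of both groups were frozen in DMSO before profiling. Every value therefore describes cells sorted as CD8 T cells of 1 antigen specificity from 1 tumor line. Counts at marker genes of other cells are given below. The sources do not give ages or numbers of animals, or tell whether each replicate was a separate animal. The p-values therefore reflect the spread among these libraries only, which may be technical.

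Counts per library over all regions ran from 16595779 to 27182809. The first principal component, with 58.3% of the variance, separated the groups. The second, with 19.2%, set replicate 2 with SMARTA cells apart from the other 2 libraries of its group, so called values of the cytokine genes are also given without it. The T cell marker list held Cd8a, Cd8b1, Cd3e, Cd3d, Cd3g, Cd2, Cd5 and Lck, and all 8 genes had regions. Their summed accessibility was 1534 to 1670 CPM (counts scaled to library size with edgeR's TMM factors) without and 1414 to 1684 with SMARTA cells. All but Cd8a and Cd8b1 are also genes of CD4 T cells, so this sum does not tell CD8 from CD4 T cells. Regions of CD4 T cell, B cell and myeloid marker genes also carried counts, and their levels are given beside the results they move with. Melanocyte marker regions summed to 267 to 285 CPM without and 283 to 314 CPM with SMARTA cells. Tyr and Tyrp1 had no region, and the part of melanoma cells in the results was not tested. In a bulk library, fewer cells with an open site and a less open site in each cell cannot be told apart.

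Many, though not all, cytokine genes are kept closed in resting T cells. They are opened, in part through elements many kilobases from the gene, when the antigen receptor activates factors such as NFAT, AP-1 and NF-kB. IL-2 and IL-21 act through receptors that share the common gamma chain and support T cell growth and function. IL-10 restrains inflammation and is also made by strongly activated effector CD8 T cells. IL-4, IL-5 and IL-13 are the type 2 cytokines of helper T cells, encoded close together with the DNA repair gene Rad50 between Il13 and Il5. GM-CSF, encoded by Csf2, acts on myeloid cells, and TNF and the lymphotoxins Lta and Ltb lie side by side and signal to stromal and immune cells.

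The 250 bases before the transcription start were taken from RefSeq (GRCm38.p6), which matched 9 of the 10 genes, all but Il10. Those of Il2, Il21, Il13, Ltb and Tnf are shown because a region of the count table overlapped them, so that their accessibility can be set beside the sequence. Each is printed 5′ to 3′ on the gene's own strand and ends at the base before the start. Capitals mark matches to the NFAT core GGAAA and the NF-kB motif on either strand.
Il2 (chr3:37125955-37126204, minus strand): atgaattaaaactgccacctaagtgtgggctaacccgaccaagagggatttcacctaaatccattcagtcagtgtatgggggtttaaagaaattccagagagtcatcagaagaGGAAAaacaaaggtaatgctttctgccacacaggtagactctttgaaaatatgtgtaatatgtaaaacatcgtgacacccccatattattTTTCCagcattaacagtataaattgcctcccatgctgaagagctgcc
Il21 (chr3:37232637-37232886, minus strand): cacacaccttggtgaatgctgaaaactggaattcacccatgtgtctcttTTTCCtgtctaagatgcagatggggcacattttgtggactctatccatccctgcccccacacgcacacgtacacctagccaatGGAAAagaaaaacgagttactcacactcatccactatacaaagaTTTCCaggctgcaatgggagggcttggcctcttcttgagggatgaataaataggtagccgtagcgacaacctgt
Il13 (chr11:53634703-53634952, minus strand): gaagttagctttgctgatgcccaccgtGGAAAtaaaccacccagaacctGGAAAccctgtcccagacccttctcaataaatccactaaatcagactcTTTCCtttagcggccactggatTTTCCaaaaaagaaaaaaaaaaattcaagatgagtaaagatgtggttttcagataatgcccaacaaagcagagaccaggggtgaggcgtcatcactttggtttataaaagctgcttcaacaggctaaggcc
Ltb (chr17:35194257-35194506, plus strand): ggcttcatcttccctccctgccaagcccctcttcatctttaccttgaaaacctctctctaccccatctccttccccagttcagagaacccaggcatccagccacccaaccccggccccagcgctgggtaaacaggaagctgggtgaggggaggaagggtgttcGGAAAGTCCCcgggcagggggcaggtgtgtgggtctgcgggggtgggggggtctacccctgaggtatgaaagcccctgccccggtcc
Tnf (chr17:35202008-35202257, minus strand): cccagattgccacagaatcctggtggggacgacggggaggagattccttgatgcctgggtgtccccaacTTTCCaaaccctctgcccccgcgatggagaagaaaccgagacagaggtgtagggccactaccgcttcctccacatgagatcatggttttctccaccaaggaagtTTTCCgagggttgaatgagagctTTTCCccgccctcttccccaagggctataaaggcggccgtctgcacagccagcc
Il13 held 4 matches to the NFAT core, Il21 and Tnf 3 each, Il2 2 and Ltb 1. At least 1 such match occurs in 55.6% of 32851 RefSeq promoters of this length. The only match to the NF-kB motif, searched on both strands, lay in Ltb, where it contains the NFAT core match, and 1.41% of promoters hold one. No AP-1 match (TGANTCA, in 6.75% of promoters) and no GATA match (GATAAG, in 6.55%) fell in these windows. Il13 also held 1 RUNX match (TGTGGT, in 14.0%). Matches describe the letters and do not show that a factor binds.

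Levels below are CPM, given for each library in the order of its replicate number. A log2 fold is the group with minus the group without SMARTA cells, and a region was called closed (negative fold) or opened (positive fold) at an adjusted p of at most 0.05 (edgeR quasi-likelihood test, Benjamini-Hochberg adjustment over all regions). Of the 64 cytokine regions, 9 were closed and 4 opened with SMARTA cells, and 51 did not pass. This makes 20.3% called, beside 15.1% of all regions in the table. The closed share was 14.1% beside 10.4%, and the opened share 6.25% beside 4.68%. The groups did not overlap in 24 regions, or 37.5%, beside 34.2% of all regions. These shares lie close to the background of the table, and the median log2 fold of the cytokine regions was -0.01, beside 0.01 for all regions. Of the 10 genes, 7 had a called region. Tnf, Lta and Il4, with 3, 2 and 1 regions, had none.

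Of the 13 called regions, 12 were intergenic, as were 55 of all 64, and 1 was inside Il21. Among the 18 regions centred within 2 kb of a gene boundary, 2 were called, and among the 46 farther away, 11, a difference that was not tested. The shares called at these distances over all regions were not computed. These counts therefore cannot be read as a trait of the cytokine genes. When the counts of all regions of a gene were summed, 2 genes changed, at a background of 8.06% of 15612 genes: Il10 fell and Il13 rose. These counts moved when single libraries were left out, as did those of all regions, 7767 closed and 3497 opened in the main fit. The 9 closed regions became 4 when replicate 3 with SMARTA cells was left out, beside 4403 of all regions. The 4 opened regions became 1 when OT1-only replicate 2 was left out, beside 1273 of all regions. They became 2 when OT1-only replicate 3, or replicate 3 or 1 with SMARTA cells, was left out. The opened regions of the whole table were then 1224, 1787 and 3142. Neither gene passed when OT1-only replicate 2 or 3 or replicate 3 with SMARTA cells was left out, and 1 did when replicate 1 of either group was. Of all genes, 924 fell and 335 rose in the main fit. Without OT1-only replicate 2 these numbers were 513 and 104, without OT1-only replicate 3 they were 517 and 137. Without replicate 3 with SMARTA cells they were 438 and 103. When replicate 2 with SMARTA cells, the library that stood apart, was left out, there were 9 closed regions, 6 opened regions and 2 changed genes. Of all regions, 8410 were then closed and 4259 opened.

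**Figure D1:**
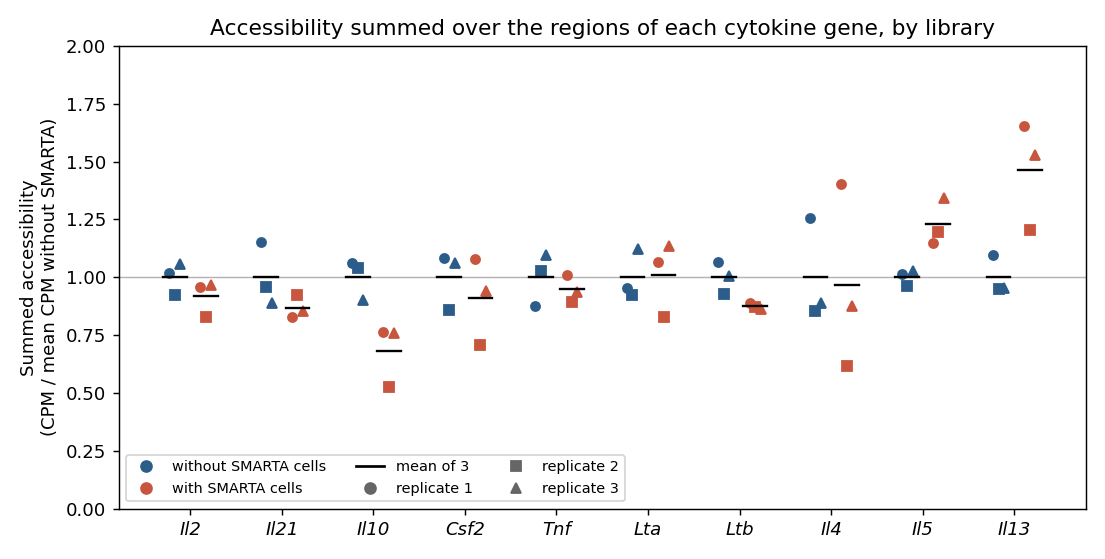
Summed accessibility of each cytokine gene in every library, as CPM over all its regions divided by the mean of the 3 libraries without SMARTA cells (points, libraries, shaped by replicate number; black bars, group means of 3). The mean with SMARTA cells stands at 68.3% for Il10 and 146% for Il13 of the mean without SMARTA cells, and for both genes the groups do not overlap.

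**Figure D2:**
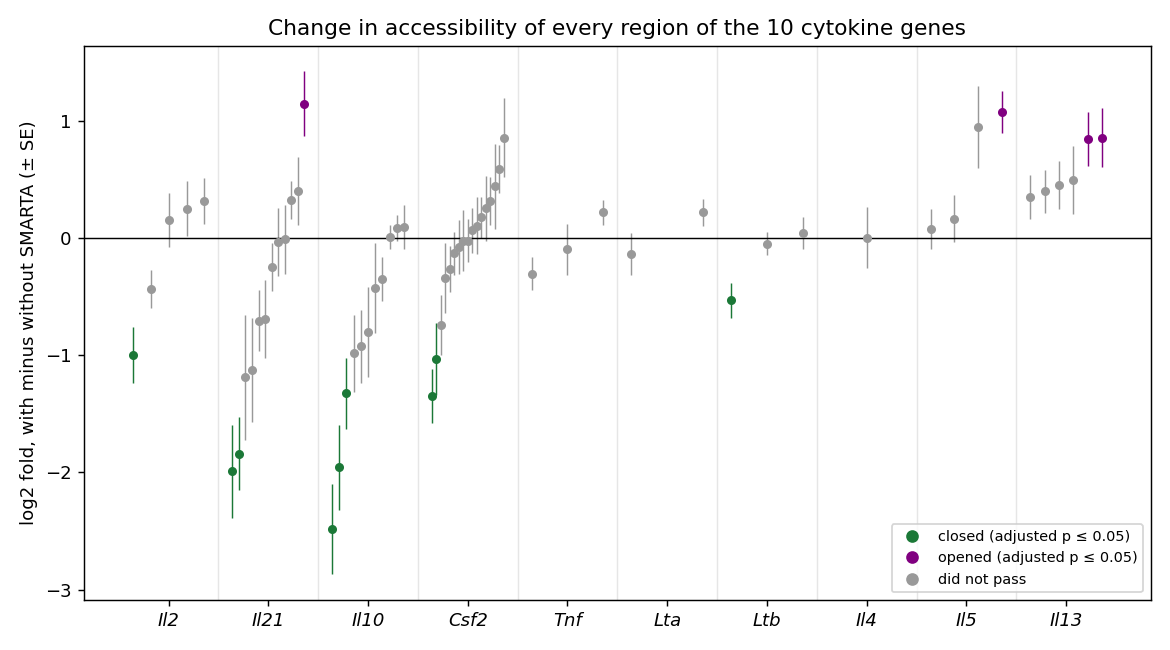
Log2 fold of each of the 64 regions, with minus without SMARTA cells, by gene (points, regions, coloured by call; bars, SE). Il10 and Il21 reach the most negative folds, all 10 Il13 and Il5 regions lie above 0, and Tnf and Lta regions lie near 0.

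Il10 had 3 closed regions, among them the one with the most negative fold of the 64. The summed accessibility of its 11 regions was 264, 258 and 224 CPM without SMARTA cells and 190, 130 and 189 CPM with them. Every library without SMARTA cells lay above every library with them, and the log2 fold was -0.55 ± 0.14 (SE, n = 3 against 3 libraries; edgeR adjusted p = 0.039). Without replicate 2 with SMARTA cells it was -0.40 (edgeR adjusted p = 0.015). The call was lost on leaving out any 1 OT1-only library, or replicate 3 with SMARTA cells.

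The 3 closed regions were all intergenic and lay 16.3 to 23.3 kb from the gene (chr1:131019845-131024970), on its low-coordinate side. The region at chr1:131003329-131003729, 16.3 kb away, measured 18.8, 17.1 and 9.84 CPM without and 4.02, 1.14 and 2.88 CPM with SMARTA cells. It was 5.59-fold lower (log2 fold -2.48 ± 0.39, edgeR adjusted p = 0.0025). All 3 peak lists without SMARTA cells and 2 of the 3 with them had a peak there. The region at chr1:131000363-131001125, 19.1 kb away, is the longest of the set at 762 bases. It measured 28.3, 28.0 and 24.8 CPM without and 10.3, 2.59 and 7.82 CPM with SMARTA cells (log2 fold -1.96 ± 0.36, edgeR adjusted p = 0.0059). The region at chr1:130996353-130996753, 23.3 kb away, measured 6.72, 11.7 and 9.92 CPM without and 4.94, 2.23 and 4.08 CPM with them (log2 fold -1.32 ± 0.30, edgeR adjusted p = 0.015). In all 3 regions the groups did not overlap, and replicate 2 with SMARTA cells was the lowest library. Without that library the log2 folds were -2.15, -1.58 and -1.08, with edgeR adjusted p = 0.00083, 0.00023 and 0.014. The call at 23.3 kb was lost on leaving out OT1-only replicate 2 or 3 or replicate 3 with SMARTA cells.

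The other 8 Il10 regions did not pass. Inside the gene, the region at chr1:131022569-131022969 measured 52.2, 42.1 and 33.3 CPM without and 27.4, 9.14 and 27.5 CPM with SMARTA cells. These groups do not overlap, but the fold of -0.98 ± 0.33 did not pass (edgeR adjusted p = 0.073), and neither did its neighbour at chr1:131021496-131021896 (-0.92 ± 0.31, edgeR adjusted p = 0.074). The most accessible Il10 region, at chr1:130993682-130994082 and 26.0 kb from the gene, measured 49.2, 63.5 and 54.5 CPM without and 51.6, 57.2 and 59.4 CPM with SMARTA cells, a fold of 0.01 ± 0.10 (edgeR adjusted p = 0.97). It is centred 2.67 kb from the closed region at 23.3 kb. The region nearest to a gene boundary, at chr1:131025853-131026253, had a fold of 0.09 ± 0.11 (edgeR adjusted p = 0.65). The 3 closed regions are consecutive along the locus, and the 2 regions before and the 6 after them did not pass. B cell marker regions summed to 124 to 155 CPM without and 88.9 to 114 CPM with SMARTA cells, and myeloid marker regions to 205 to 243 and 188 to 206 CPM. Cd79a, Ms4a1 and Lyz2 had no region, and the part of these cells in the Il10 result was not tested.

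Il21, the cytokine of follicular helper and tissue CD4 T cells that sustains CD8 T cells, had closed and opened elements in 1 locus (chr3:37222759-37232636). Its summed accessibility did not pass (log2 fold -0.20 ± 0.10, edgeR adjusted p = 0.23). The region at chr3:37259585-37259985, 27.2 kb before the start, measured 15.1, 12.4 and 9.30 CPM without and 5.14, 2.23 and 2.88 CPM with SMARTA cells (log2 fold -1.84 ± 0.31, edgeR adjusted p = 0.0036). The groups did not overlap, and without replicate 2 with SMARTA cells, the lowest library, the fold was -1.63 (edgeR adjusted p = 0.0030).

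Inside the gene, the region at chr3:37229175-37229575 measured 5.18, 3.77 and 2.73 CPM without and 0.611, 1.805 and 0.636 CPM with SMARTA cells (log2 fold -1.99 ± 0.40, edgeR adjusted p = 0.0087). All 3 peak lists without SMARTA cells and none of the 3 with them had a peak there. Replicate 2 was the highest of the libraries with SMARTA cells, and without it the fold was -2.62 (edgeR adjusted p = 0.00057). Leaving out replicate 3 of that group lost the call (edgeR adjusted p = 0.054). Its gene body neighbour at chr3:37231079-37231479 (-1.19 ± 0.54, edgeR adjusted p = 0.17) and the region over the start, at chr3:37232579-37233210, did not pass. The start region, which covers all 250 printed bases, measured 4.18, 2.23 and 1.24 CPM without and 0.713, 1.62 and 1.16 CPM with SMARTA cells (-1.12 ± 0.44, edgeR adjusted p = 0.12).

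One Il21 element moved the other way. At chr3:37205206-37205606, 17.4 kb beyond the gene, accessibility was 6.37, 7.27 and 9.55 CPM without and 12.9, 25.1 and 13.6 CPM with SMARTA cells (log2 fold 1.15 ± 0.28, edgeR adjusted p = 0.021). The groups did not overlap, replicate 2 with SMARTA cells was the highest library, and without it the fold was 0.78 (edgeR adjusted p = 0.022). This call was lost on leaving out OT1-only replicate 1 or 2. The most accessible Il21 region lies 1.16 kb from it, at chr3:37204045-37204445, with 12.2, 13.5 and 14.4 CPM without and 17.2, 14.9 and 18.0 CPM with SMARTA cells (0.32 ± 0.16, edgeR adjusted p = 0.22). Across its 12 regions, 9 folds were negative and 3 positive, and 2 regions were closed and 1 opened.

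**Figure D3:**
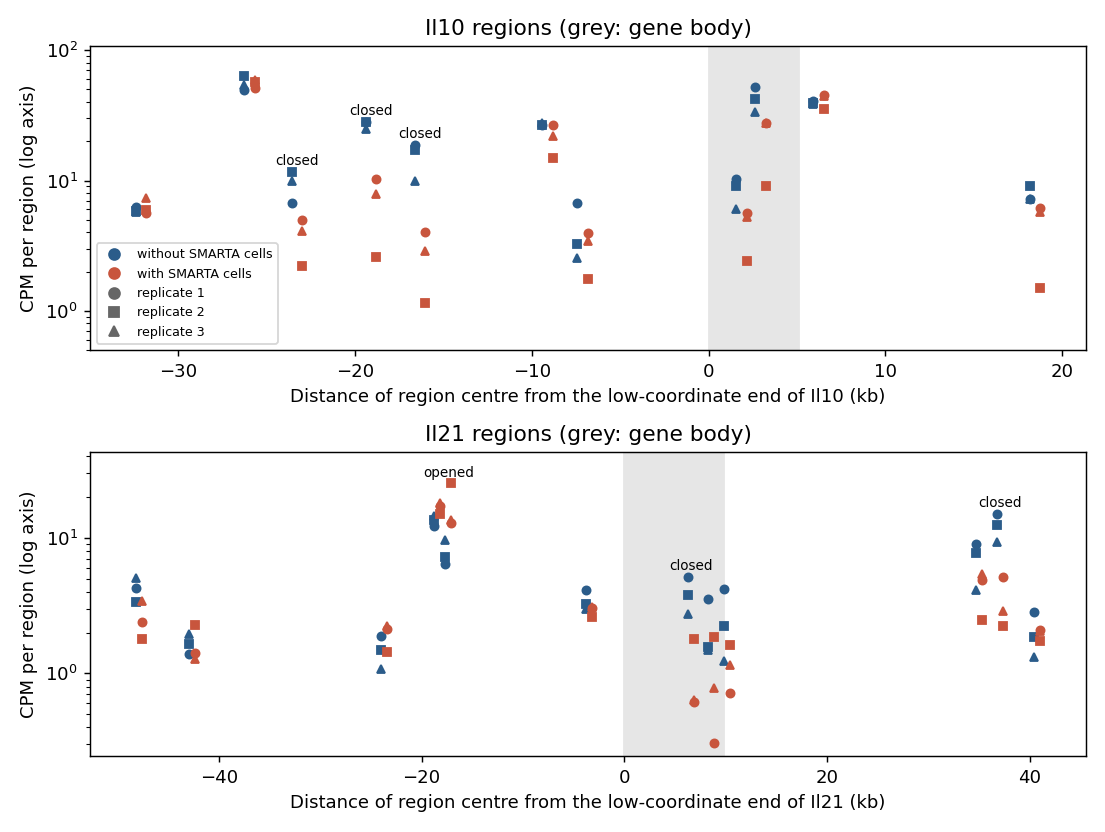
Accessibility of the Il10 and Il21 regions in every library (CPM, log scale) against the distance of the region from the low-coordinate end of the gene, with the 2 groups drawn slightly apart sideways and called regions labelled. At Il10 the closed regions sit 16.3 to 23.3 kb from the gene beside regions whose libraries overlap. At Il21 closed regions sit inside the gene and on its high-coordinate side and the opened region on its low-coordinate side.

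Il2, the growth factor of activated T cells, had 1 closed region of 5 (chr3:37120713-37125954). It lies 31.3 kb before the start at chr3:37157024-37157424, and measured 6.67, 4.11 and 5.62 CPM without and 3.06, 2.11 and 2.96 CPM with SMARTA cells (log2 fold -0.999 ± 0.24, edgeR adjusted p = 0.020). The groups did not overlap, though the call was lost on leaving out OT1-only replicate 1 or 3 or replicate 3 with SMARTA cells. On leaving out SMARTA replicate 2, the fold was -0.86 (edgeR adjusted p = 0.031). The start region, chr3:37125803-37126203, which overlaps 249 of the 250 bases printed above, measured 6.72, 7.92 and 7.98 CPM without and 8.96, 11.1 and 8.27 CPM with SMARTA cells and did not pass (0.32 ± 0.19, edgeR adjusted p = 0.31). The most accessible region, 26.6 kb before the start, measured 15.9, 14.8 and 14.7 CPM and 11.8, 11.5 and 10.2 CPM (-0.43 ± 0.16, edgeR adjusted p = 0.10). Summed accessibility of Il2 did not pass (-0.12 ± 0.09, edgeR adjusted p = 0.43).

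Csf2, which encodes GM-CSF, had the most regions and 2 of its 17 were closed. The region at chr11:54201825-54202225, 45.2 kb from the gene (chr11:54247270-54249899), measured 7.12, 6.04 and 7.98 CPM without and 3.36, 1.99 and 2.88 CPM with SMARTA cells (log2 fold -1.35 ± 0.23, edgeR adjusted p = 0.0040). The region at chr11:54226628-54227028, 20.4 kb from the gene, measured 5.98, 2.92 and 4.63 CPM and 2.75, 1.38 and 2.36 CPM (-1.03 ± 0.31, edgeR adjusted p = 0.048). In both regions each library with SMARTA cells lay below each library without them. Without replicate 2 with SMARTA cells, the lowest in both, the folds were -1.18 (edgeR adjusted p = 0.0038) and -0.81 (edgeR adjusted p = 0.079). The second call was lost on leaving out 5 of the 6 libraries in turn, all but OT1-only replicate 2, and under loess scaling. The region inside the gene, the most accessible, measured 21.3, 18.9 and 25.4 CPM without and 25.9, 16.5 and 22.2 CPM with SMARTA cells (-0.02 ± 0.19, edgeR adjusted p = 0.96). Summed accessibility of Csf2 was -0.13 ± 0.14 (edgeR adjusted p = 0.59), and 0.01 without replicate 2 with SMARTA cells.

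Tnf, Lta and Ltb, a compact cluster on chromosome 17 (chr17:35194507-35205578), had high levels and little change. The only call was for Ltb, which encodes the membrane anchor of the lymphotoxin heterotrimer: the region at chr17:35197152-35197552, 1.05 kb beyond the gene, measured 26.8, 32.7 and 33.4 CPM without and 24.6, 18.8 and 20.9 CPM with SMARTA cells (log2 fold -0.53 ± 0.15, edgeR adjusted p = 0.035). Here the groups did not overlap. Without replicate 2 with SMARTA cells the fold was -0.45 (edgeR adjusted p = 0.051). The call was lost on leaving out replicate 2 or 3 of either group, and with the replicate number as a block (edgeR adjusted p = 0.066). The Ltb start region, which covers all 250 printed bases, had 42.8, 29.7 and 33.9 CPM without and 37.3, 38.7 and 33.9 CPM with SMARTA cells (0.05 ± 0.14, edgeR adjusted p = 0.86), and the gene-body region a fold of -0.05 ± 0.10 (edgeR adjusted p = 0.80).

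At Tnf, the start region at chr17:35201829-35202229 measured 31.3, 39.9 and 42.7 CPM without and 34.7, 30.4 and 27.4 CPM with SMARTA cells (-0.30 ± 0.14, edgeR adjusted p = 0.18). It overlaps 222 of the printed bases. The most accessible Tnf region, in the gene body, measured 34.4, 37.8 and 40.6 CPM and 45.0, 39.0 and 47.3 CPM (0.22 ± 0.11, edgeR adjusted p = 0.20). At Lta, the gene-body region measured 34.9, 35.0 and 41.5 CPM without and 41.6, 39.3 and 49.0 CPM with SMARTA cells (0.22 ± 0.12, edgeR adjusted p = 0.23), and the other region had a fold of -0.13 ± 0.18 (edgeR adjusted p = 0.68). Summed accessibility did not pass for Tnf (-0.08 ± 0.09, edgeR adjusted p = 0.62), Lta (0.02 ± 0.12, edgeR adjusted p = 0.94) or Ltb (-0.19 ± 0.07, edgeR adjusted p = 0.11).

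Of the type 2 cytokine genes on chromosome 11, Il13 rose in summed accessibility, and Il5 and Il4 did not pass. Summed over its 6 regions, Il13 (chr11:53631323-53634702), which acts on epithelium and macrophages, measured 26.2, 22.7 and 22.7 CPM without and 39.5, 28.7 and 36.4 CPM with SMARTA cells. The groups did not overlap, and the log2 fold was 0.55 ± 0.13 (edgeR adjusted p = 0.029). Without replicate 2 with SMARTA cells, the lowest of its group, it was 0.67 (edgeR adjusted p = 0.0049). It did not pass when OT1-only replicate 2 or 3 or SMARTA replicate 1 or 3 was left out.

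Both called Il13 regions were opened. The region at chr11:53631120-53631520, over the end of the gene, measured 8.32, 6.46 and 5.46 CPM without and 14.9, 9.62 and 11.8 CPM with SMARTA cells (0.85 ± 0.23, edgeR adjusted p = 0.034). The region at chr11:53625270-53625670, 5.85 kb beyond the gene, measured 2.64, 1.88 and 2.64 CPM and 5.30, 3.01 and 4.60 CPM (0.86 ± 0.25, edgeR adjusted p = 0.044). In each, every library with SMARTA cells lay above every library without them. Without replicate 2 with SMARTA cells, the lowest of its group in both, the folds were 0.99 (edgeR adjusted p = 0.0094) and 1.05 (edgeR adjusted p = 0.0073). The first call was lost on leaving out OT1-only replicate 2 or 3 or replicate 1 or 3 with SMARTA cells. The second was lost on leaving out any 1 library but replicate 2 with SMARTA cells, and under total-count scaling (0.82, edgeR adjusted p = 0.057). The start region, over 203 of the printed bases, measured 2.39, 1.38 and 1.61 CPM without and 3.00, 1.68 and 2.77 CPM with SMARTA cells (0.50 ± 0.29, edgeR adjusted p = 0.29).

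Il5 (chr11:53720794-53725103), the eosinophil growth factor, had 1 opened region of 4, at chr11:53732294-53732694 and 7.39 kb beyond the gene. Its level was 3.34, 3.27 and 3.35 CPM without and 6.62, 7.10 and 7.30 CPM with SMARTA cells, 2.11-fold higher (log2 fold 1.08 ± 0.18, edgeR adjusted p = 0.0032). The libraries of each group lay close together and far from the other group, and without replicate 2 with SMARTA cells the fold was 1.07 (edgeR adjusted p = 0.0029). The region nearest to the gene had a fold of 0.95 ± 0.35 (edgeR adjusted p = 0.098), and the most accessible one 0.17 ± 0.20 (edgeR adjusted p = 0.63). Summed accessibility of Il5 did not pass (0.30 ± 0.09, edgeR adjusted p = 0.082), although its groups did not overlap. Il4, which drives type 2 helper cells and the switch of B cells to IgE, had a single region, 2.64 kb beyond the gene, with 25.5, 17.9 and 18.5 CPM without and 29.9, 13.4 and 18.7 CPM with SMARTA cells (0.01 ± 0.26, edgeR adjusted p = 0.99).

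All 6 Il13 and all 4 Il5 folds were positive, in this fit and under each of the alternatives that refit the data. With the 6 regions of Rad50, assigned by the same rule, and that of Il4, the neighbourhood held 17 regions over 128.3 kb, of which 17 had a positive fold, beside 51.2% of all regions. Among them 5 were opened and 0 closed. Rad50 had 2 of the 5, at chr11:53658110-53658510 (1.10 ± 0.26, edgeR adjusted p = 0.017) and chr11:53662846-53663561 (0.94 ± 0.27, edgeR adjusted p = 0.039). The count of opened regions ranged from 1, when replicate 3 of either group was left out, to 6, when replicate 2 with SMARTA cells was. It was 2 when OT1-only replicate 2 or replicate 1 with SMARTA cells was left out, and 3 when OT1-only replicate 1 was. Between 15 and 17 folds stayed positive. Neighbouring regions of 1 locus are not independent, so no test was made of the number of positive folds. CD4 T cell marker regions summed to 193 to 233 CPM without and 243 to 259 CPM with SMARTA cells. Of these genes, Cd40lg had 4 opened and 1 closed of 14 regions, Cd4 1 closed of 3, and Foxp3 and Zbtb7b no call. Their part in the type 2 result was not tested. Cd8a had 3 closed of 13 regions and Cd8b1 1 opened of 19.

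**Figure D4:**
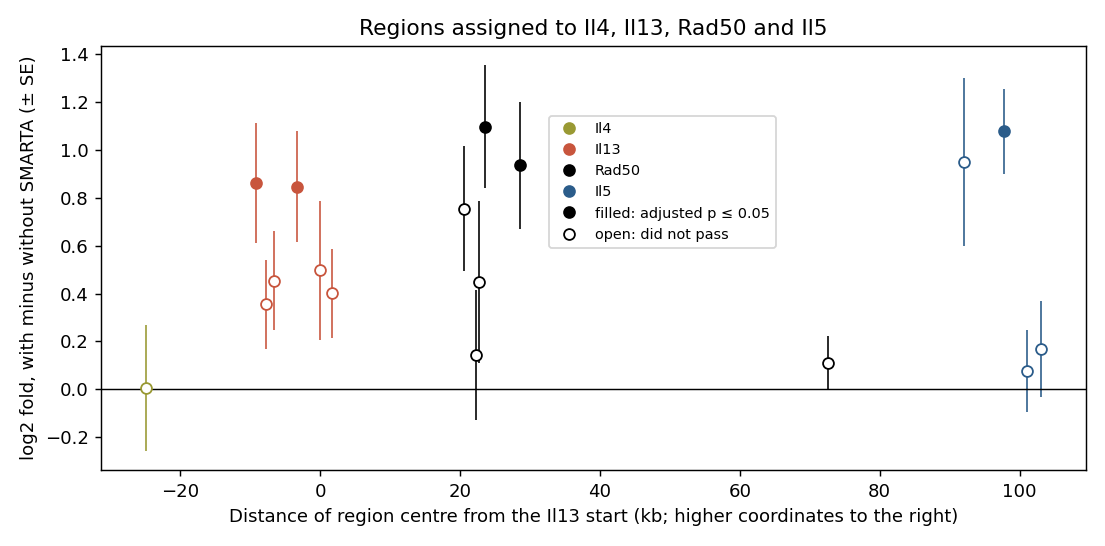
Log2 fold (± SE) of each region of the Il4, Il13, Rad50 and Il5 neighbourhood, with minus without SMARTA cells, against distance from the Il13 start in kb (filled points, adjusted p at most 0.05; open points, did not pass). All 17 points lie above 0, and the 5 filled points belong to Il13, Rad50 and Il5.

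The level of the most accessible region of each gene, chosen by its mean log2 CPM over all 6 libraries and given as mean CPM without SMARTA cells per region and not per gene length, ordered the genes as Il10 55.7, Ltb 38.7, Tnf 37.6, Lta 37.1, Csf2 21.9, Il4 20.6, Il2 15.1, Il21 13.3, Il5 10.5 and Il13 6.74. The libraries of Ltb, Tnf and Lta overlapped, as did those of Csf2 and Il4. In the same regions with SMARTA cells, Il10 was again the highest, at 51.6 to 59.4 CPM. Below it many ranges overlapped, among them those of Tnf and Lta, of Csf2, Il4 and Il21, and of Il13 (9.62 to 14.9 CPM), Il5 (9.47 to 13.6 CPM) and Il2 (10.2 to 11.8 CPM), so their order was not resolved. Of the 13 calls, 5 were kept in every one of the 15 alternatives: Il10 at 16.3 and 19.1 kb, Il21 at 27.2 kb, Csf2 at 45.2 kb and Il5 at 7.39 kb. The other 8 were lost in at least 1. The alternatives include settings that could not change a region's call, namely no count filter and other assignment rules.

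Peaks called by the authors in the same libraries describe these loci by the authors' own values, and are not independent of the counts. All 64 regions had a peak in at least 2 lists and 44 in all 6. How the regions were chosen is not stated, so this minimum may follow from that choice. Peaks only in lists without SMARTA cells were found at 4 regions, and only in lists with them at 1. The same counts over all regions were not made. Over all 10 cytokine genes the lists held 66, 70 and 68 peaks without and 74, 57 and 67 with SMARTA cells. At Il21 they held 13, 14 and 14 against 11, 7 and 10, at Il13 7, 5 and 7 against 7, 6 and 7. Csf2 had 15, 19 and 17 against 21, 16 and 19. Whole lists held 73012, 82089 and 81223 peaks without and 76850, 65020 and 75261 with SMARTA cells. The fewest were in replicate 2 with SMARTA cells, the library with the lowest total count. The part of depth in these numbers was not tested.

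Receptors and regulators of these cytokines were described from lists of symbols, by counts beside the shares of all regions given above. Of 16 receptor genes, 13 had regions. Of their 101 regions, 12 were closed and 5 opened (median log2 fold -0.05), beside 10.4% closed and 4.68% opened of all regions. No list was tested as a set against these shares. The closed ones included 1 of the 19 regions of Il2ra, the alpha chain of the IL-2 receptor. It fell from 7.73 ± 0.73 to 0.689 ± 0.48 CPM (SD, n = 3, log2 fold -3.38 ± 0.37, edgeR adjusted p = 0.00047). Summed over its regions, Il2ra did not pass (-0.13 ± 0.12, edgeR adjusted p = 0.54). Il21r, the IL-21 receptor, had 2 closed of 11 (strongest -1.76 ± 0.24, edgeR adjusted p = 0.0013). Opened ones included 1 of the 2 regions of Il2rg, the common gamma chain (0.97 ± 0.21, edgeR adjusted p = 0.012). Il4ra had 3 of 13 opened (strongest 1.16 ± 0.27, edgeR adjusted p = 0.017). The opened count of this list was 0 to 3 on leaving out any 1 library except replicate 2 with SMARTA cells. Over all regions it was 1224 to 3142 on leaving out these libraries, beside 3497 in the main fit.

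All 24 transcription factor genes had regions, and 54 of 366 were closed and 20 opened (median -0.07). Of all regions, 10.4% were closed and 4.68% opened. Regions of Prdm1, which encodes the repressor Blimp-1, included 8 closed and 1 opened of 28. The strongest closed one fell from 7.48 ± 0.11 to 1.56 ± 0.36 CPM (SD, n = 3; -2.24 ± 0.22, edgeR adjusted p = 0.00032). Jun, an AP-1 subunit, had 3 closed and 3 opened of 15 (strongest -2.74 ± 0.32, edgeR adjusted p = 0.00058). Nfatc2, which encodes an NFAT factor, had 1 closed and 2 opened of 26, and its sum did not pass (0.07 ± 0.10, edgeR adjusted p = 0.67). The strongest opened region of Nfatc2 rose from 61.3 ± 1.89 to 77.2 ± 1.46 CPM (0.33 ± 0.07, edgeR adjusted p = 0.0079). The closed count of this list was 25 when replicate 3 with SMARTA cells was left out, and 24 and 22 when OT1-only replicate 2 or 3 was. Over all regions it was 4403, 4961 and 4850 in the same fits, beside 7767 in the main fit. The opened region of Prdm1 had a fold of 0.92 ± 0.19 (edgeR adjusted p = 0.010). The opened count was 2 to 6 on leaving out any of these 3 libraries, 10 on leaving out OT1-only replicate 1, 13 on leaving out replicate 1 with SMARTA cells, 13 under loess scaling and 12 under total-count scaling.

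Other cytokine genes had 19 of 92 regions closed and 4 opened (median -0.11), beside 10.4% closed and 4.68% opened of all regions. Regions of Ifng included 10 closed and 1 opened of 33, and Il12a, a subunit of IL-12, 2 closed of 10 (strongest -2.14 ± 0.24, edgeR adjusted p = 0.00047). Il27 had 2 opened of 8 (strongest 1.14 ± 0.28, edgeR adjusted p = 0.020) and Lif 1 of 10 (0.88 ± 0.23, edgeR adjusted p = 0.029). The opened count of this list was 0 to 2 on leaving out any 1 OT1-only library or replicate 3 with SMARTA cells, and 7 on leaving out replicate 2 with them. Neighbouring genes had 8 of 74 closed and 2 opened (median 0.03), beside the same 10.4% and 4.68% of all regions. Cetn4, next to Il21, had 4 closed of 12 (strongest -2.63 ± 0.24, edgeR adjusted p = 0.00027), and Mapkapk2, next to Il10, 2 closed of 12 (strongest -1.24 ± 0.26, edgeR adjusted p = 0.011). The closed count of the neighbours was 2 when replicate 3 with SMARTA cells was left out and 5, 3 and 5 when OT1-only replicates 1, 2 and 3 were, and their opened count was 0 to 5 on leaving out 1 library.

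Il13 had the smallest p in summed counts, and the 5 genes farther than 1 Mb whose summed log2 CPM followed it most closely over the 6 libraries were Nup210 (Pearson r 0.994), Gdpd5 (0.991), Casp9 (0.988), Mphosph8 (0.987) and Zdhhc13 (0.986), chosen as the top of 15586 genes. Their log2 folds were 0.09 to 0.18 and none passed the test, so their differences between groups were smaller than that of Il13.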

How the data were processed

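The authors deposited whole-number read counts per region for 6 libraries, with no normalization, and 1 peak list per library. For each peak the authors' lists give −log10 p and −log10 q, a score and, as a ratio to the local background, the fold enrichment. GRCm38 is the build, and DiffBind 3.4.11, MACS2 2.1.1, Picard 2.18.9, SAMtools 1.8 and BWA 0.7.17 the tools, in the submitters' processing notes, which state no roles. Whether duplicates were removed or reads shifted for the transposase, and how the regions were chosen, is not stated. Duplicates left in would raise counts, and sites outside the chosen regions have none. Region positions are printed as deposited.

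Genes came from the RefSeq table of GRCm38.p6. Regions were assigned by midpoint, 42842 inside a gene, 28356 intergenic and 3488 to none. Counts were tested with edgeR 4.0.16 under R 4.3.3: TMM scaling, filterByExpr (0 regions removed), glmQLFit and glmQLFTest on all 6 libraries with group as the only term, and Benjamini-Hochberg adjustment over 74686 regions or, for counts summed per gene, 15612 genes, at 0.05. SEs were computed as the absolute fold over the square root of F. Code was tested on simulated data. The biological coefficient of variation was 18.0%, and counts in the cytokine regions ran from 6 to 1652 per library. No library pair agreed within sampling noise (lowest chi-square per degree of freedom 2.76). The cytokine genes, lists and motifs were chosen with earlier results of these data known. For each gene, the regions with the smallest p, the highest level and the nearest boundary were named, plus called regions. In other lists, the genes with the smallest p in each direction were named. Alternatives were other scalings, DESeq2 1.42.0, count filters, a replicate block, other assignment rules and leaving out each library.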

Additional observations from a re-analysis of the deposited data

How the results depend on the processing

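Precision is limited by 3 libraries a group and, for weak regions, by depth. Of the 735 values recomputed under 15 alternatives, 642 kept their direction and side of the threshold, or stayed within 1.5 times for a count. Part of this agreement was fixed beforehand. The fit without the count filter equalled the main fit, since the filter removed 0 regions and 0 genes. The assignment rules reused the main fit for each region. The 9 closed regions became 4 to 9 on leaving out 1 library (4 without replicate 3 with SMARTA cells), 13 with DESeq2 and 9 to 11 otherwise. The 4 opened regions became 1 to 6 on leaving out 1 library and 3 to 5 otherwise, and the 2 changed genes 0 to 2 and 2. Leaving out a library also leaves fewer samples. Over all regions, 7767 were closed and 3497 opened in the main fit. On leaving out 1 library these counts ran from 4403 to 8410 and from 1224 to 4259. Whether library numbers pair the samples is not stated. Deviations of same-numbered libraries from their group means correlated at -0.02, -0.08 and 0.08. With 3 libraries a group, these values cannot decide whether a batch was shared. With the replicate number as a block there were 11 closed regions, 5 opened regions and 2 changed genes, and the Ltb call was lost (-0.53, edgeR adjusted p = 0.066). Directions reversed only for values that did not pass. The Il4 region was -0.044 under total-count scaling, -0.052 under loess scaling, -0.0050 with a mean of at least 30 counts, -0.052 with the replicate block and -0.36 to 0.24 on leaving out 1 library. Summed Lta was -0.030 and summed Il4 0.033 under loess scaling. On leaving out 1 library, summed Csf2 was -0.28 to 0.011, Lta -0.078 to 0.14 and Il4 -0.42 to 0.18. The cause of these shifts was not tested. The assignment rules changed no fold of a region, by construction.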

Other observations

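The peak lists held 45 peaks at the cytokine genes, by the same assignment rule, that overlapped no region of the count table. Their fold enrichment, the authors' value, ran from 1.79 to 4.58. At Il13, such a peak lay between positions 53627399 and 53627786 of chromosome 11 in 5 of the 6 lists, with an enrichment of 2.53 to 3.78. It could not be tested, since the table gives no count there.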
